A study of Mus musculus with 6 samples.

Results

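The 7 mouse globin genes Hba-a2, Hba-a1, Hbb-bt, Hbb-bs, Hbb-bh1, Hbb-y and Hba-x were examined in RNA pulled down from fetal hearts with an antibody to N6-methyladenosine (m6A), a methyl mark on RNA. They are 7 of the 48505 genes in the deposited tables and hold 202 of the 5193362 windows, a window being one of a series of positions, mostly 25 nucleotides apart, at which reads were counted. The genes were picked by Ensembl identifier: ENSMUSG00000069917 (Hba-a2), ENSMUSG00000069919 (Hba-a1), ENSMUSG00000073940 (Hbb-bt), ENSMUSG00000052305 (Hbb-bs), ENSMUSG00000052217 (Hbb-bh1), ENSMUSG00000052187 (Hbb-y) and ENSMUSG00000055609 (Hba-x). The 4 adult genes had been singled out because they held the most reads, with their difference between the exposure groups already seen, so levels and their change with exposure are given below as a description. Counts of members called in the fit over all genes are printed beside the share of all genes called, and nothing is read from them. The balance between genes and the shape along each gene were not the basis of that choice and were tested. The shares are, however, made from levels of which some had been seen when the genes were chosen.

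The libraries came from hearts of FVB/NJ fetuses of genotype WT. Their dams, 10 weeks old, breathed filtered room air (sham, 3 libraries) or an aerosol of engineered nano-TiO2, titanium dioxide nanoparticles (3 libraries). The target was 12 mg/m3, given 360 minutes a day on 6 days within an 8-day span from gestational day 5, and hearts were taken on gestational day 15. Each library holds RNA of several hearts, pooled over both sexes. How the litters of the 14 dams went into the pools is not stated in the labels, and p-values therefore measure only the spread between these libraries. Libraries held 20205024 to 31523675 reads, and every deposited normalized value was a whole number of reads divided by 1 factor per library. Markers of heart and blood cells were not checked, because the tables name genes by identifier and the gene table at hand pairs none of these with symbols.

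Hemoglobin is a tetramer of alpha-type and beta-type chains. In the mouse, alpha-type genes lie in a cluster on chromosome 11, with the embryonic Hba-x (zeta chain) beside the adult Hba-a1 and Hba-a2, and beta-type genes lie on chromosome 7, with the embryonic Hbb-y and Hbb-bh1 beside the adult Hbb-bs and Hbb-bt. The first red cells, made in the yolk sac, carry embryonic chains, and the red cells made later in the fetal liver carry adult chains. A fetal heart holds blood, so whole-heart RNA contains globin RNA. In such a bulk sample, fewer cells of a type and less RNA per cell cannot be told apart, and an IP level also mixes the amount of an RNA with how much of it the antibody bound.

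The promoters are shown as a description of the genes, and because they show which members are near-copies. RefSeq, on build GRCm38.p6, gave a promoter for 6 of the 7 genes. The tables are on another build, so these coordinates place the promoters and not the windows. Each run below is 120 bases long, ends just before the gene's start and reads 5′ to 3′ on the gene's own strand. Capitals mark matches to 5 motifs. CACCC was searched on both strands. So was CCAAT, whose matches on the other strand read as its reverse complement. The motif GATA was searched on both strands as well. For the TATA box the forms searched were ATATAA and, possibly overlapping with it, the form ATAAA, on the gene's strand only.
Hba-a1 (adult alpha, chr11:32283552-32283671, plus strand): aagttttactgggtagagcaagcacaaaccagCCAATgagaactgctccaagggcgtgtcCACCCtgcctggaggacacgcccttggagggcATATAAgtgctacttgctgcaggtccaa
Hbb-bt (adult beta, chr7:103813924-103814043, minus strand): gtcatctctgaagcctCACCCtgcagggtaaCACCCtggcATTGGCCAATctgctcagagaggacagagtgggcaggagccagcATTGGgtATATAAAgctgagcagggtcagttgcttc
Hbb-bs (adult beta, chr7:103827929-103828048, minus strand): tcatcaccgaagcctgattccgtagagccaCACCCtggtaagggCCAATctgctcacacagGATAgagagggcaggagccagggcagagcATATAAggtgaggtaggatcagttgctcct
Hbb-y (embryonic beta, chr7:103853208-103853327, minus strand): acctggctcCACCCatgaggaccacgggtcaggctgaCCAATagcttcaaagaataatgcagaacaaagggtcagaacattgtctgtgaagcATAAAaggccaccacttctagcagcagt
Hba-x (embryonic alpha, chr11:32276480-32276599, plus strand): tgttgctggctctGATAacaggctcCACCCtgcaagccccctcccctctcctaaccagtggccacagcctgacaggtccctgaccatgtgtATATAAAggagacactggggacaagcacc

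Hba-a2 (chr11:32296372-32296491, plus strand) is left unprinted because it shares an unbroken run of 247 of 250 promoter bases with Hba-a1. Hbb-bt and Hbb-bs shared a longest run of 14 bases, and Hba-a2 and Hba-x shared 10. CACCC, the core of a site bound by Krüppel-like factors, was found in all 6 promoters and in 31.7% of 32851 promoters of the same length. CCAAT, the core of the CCAAT box, was found in 5, the exception being Hba-x, against 21.3% of all promoters. ATATAA, a form of the TATA box, was found in 5, the exception being Hbb-y, which holds ATAAA at the same place; all promoters held these in 2.85% and 12.6% of cases. GATA, the core of the GATA factor site, was found in Hbb-bs and Hba-x, against 29.5% of all promoters. These matches describe the letters in the window and were not tied to any measured value.

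The adult alpha genes had the highest gene totals in the table. Hba-a2 had 2174696, 4613847 and 1812336 normalized IP reads in sham libraries 1, 2 and 3, and 1284497, 659874 and 1172731 in nano-TiO2 libraries 1, 2 and 3. Hba-a1, which encodes an alpha chain as well, had 1965745, 4235800 and 1575017 in sham hearts and 1119736, 566113 and 1041735 in nano-TiO2 hearts. For both genes sham 2 was the highest library and nano-TiO2 2 the lowest, and all nano-TiO2 libraries lay below all sham libraries. The log2 change was -1.40 ± 0.39 (SE) for Hba-a2 and -1.44 ± 0.40 for Hba-a1, from means of log2(value + 1) over 3 libraries a group.

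The adult beta genes came next. Hbb-bt had 1155494, 1968306 and 1591669 normalized IP reads in sham hearts and 944247, 214053 and 664519 in nano-TiO2 hearts. Hbb-bs had 812891, 1350185 and 1189358 in sham hearts and 707548, 156482 and 492367 in nano-TiO2 hearts. Here too the groups did not overlap, sham 2 was highest and nano-TiO2 2 lowest. The log2 changes were -1.58 ± 0.49 (SE) for Hbb-bt and -1.53 ± 0.49 for Hbb-bs. Without nano-TiO2 2 they were -0.95 and -0.89.

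The embryonic beta genes followed another order of libraries. Hbb-y, which encodes the epsilon-type chain, had 79488, 30087 and 1898 normalized IP reads in sham hearts and 954.1, 40975 and 504.1 in nano-TiO2 hearts. Hbb-bh1, an embryonic beta-type gene with far fewer reads, had 462.4, 219.1 and 22.98 in sham hearts and 7.811, 422.9 and 6.443 in nano-TiO2 hearts. Both were high in sham 1, sham 2 and nano-TiO2 2 and low in sham 3, nano-TiO2 1 and nano-TiO2 3, so each exposure group held high and low libraries and the groups overlapped. The highest library was 158-fold above the lowest for Hbb-y and 71.8-fold for Hbb-bh1.

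Hba-x, which encodes the embryonic zeta chain, had 23063, 22894 and 3242 normalized IP reads in sham hearts and 2919, 13016 and 2615 in nano-TiO2 hearts. The same 3 libraries were high. Its range was narrower, 8.82-fold, and was 42.4-fold outside 3 windows described below. The log2 changes with exposure were -2.15 ± 1.56 (SE) for Hbb-bh1, -2.62 ± 1.72 for Hbb-y and -1.37 ± 0.82 for Hba-x. On leaving out 1 library they ran from -4.06 to -1.14, from -4.58 to -1.40 and from -2.31 to -0.90. In all 3 genes they were larger in size without sham 3 or nano-TiO2 2, low and high for their groups in these genes, and smaller without any other library; without sham 1 they were -1.26, -1.48 and -0.90, and without nano-TiO2 3 they were -1.14, -1.40 and -0.96. On recovered counts, the change of Hbb-bh1 was -0.78 in edgeR and -0.94 in DESeq2, and that of Hbb-y was -1.49 and -1.65.

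**Figure D1:**
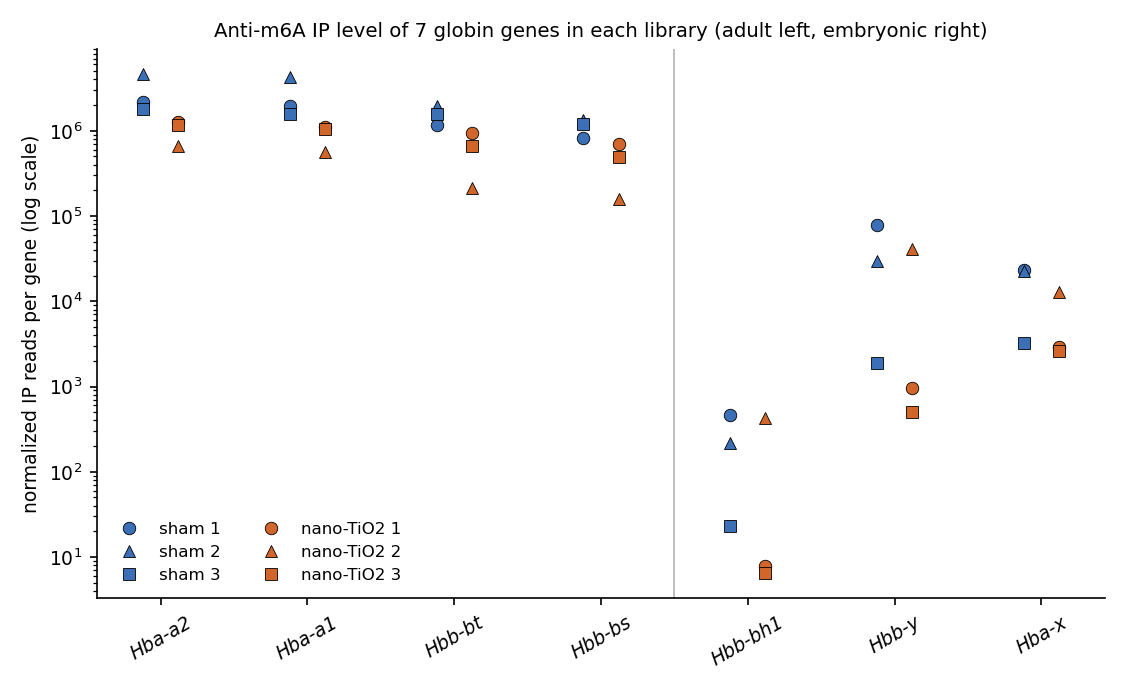
Normalized IP reads per gene (log scale) for the 4 adult genes at left and the 3 embryonic genes at right; each symbol is 1 library, blue for sham and orange for nano-TiO2, with the shape giving the replicate number. All nano-TiO2 symbols sit below the sham symbols in the adult genes. Quantile normalization does not keep this order, since it gives the top ranks the same values in every library. In the embryonic genes sham 1, sham 2 and nano-TiO2 2 sit above the other libraries.

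Across the 7 genes, 4 were lower in all nano-TiO2 libraries than in all sham libraries, against 18.5% of the 18566 genes whose mean reached 10 normalized reads; 0 members, against 30.9% of all genes, were higher in all of them. By limma's test at an adjusted p of 0.05, the same 4 adult genes were called lower, against 12.0% of all genes, and 24.0% of all genes were called higher. These counts rested on single libraries and on the scaling. Without sham 2, 0 members were called and 4 had an unadjusted p below 0.05 in limma, as had 41.2% of all genes. After quantile normalization, 0 members were called and 0 had an unadjusted p below 0.05 in limma, against 44.8% of all genes. There were 2 called without sham 1 and 2 without nano-TiO2 3. When genes of low level were kept in the fit, 0 members were called. In that limma fit 4 members had an unadjusted p below 0.05, as had 30.1% of all genes. The share of all genes called lower was 9.05% without sham 2, 15.2% after quantile normalization, 8.45% without sham 1, 8.6% without nano-TiO2 3 and 5.8% without the filter. With equal totals 3 members were called lower, against 0.906% of all genes, and 2 were called lower with equal totals outside the adult globins, against 5.43%; 43.2% and 34% of all genes were then called higher. The median change of all genes moved from 0.13 with the deposited scaling to 0.62 with equal totals, 0.40 with equal totals outside the adult globins and -0.05 after quantile normalization (log2). With equal totals the changes of Hba-a2, Hba-a1, Hbb-bt and Hbb-bs were -0.90, -0.94, -1.09 and -1.03. After quantile normalization the changes of Hba-a2, Hba-a1, Hbb-bt and Hbb-bs were 0, 0.23, -0.23 and -0.63. This method gives each rank the same value in every library, so it cannot show a change in genes that keep the top ranks. The 0 members called after it carry the same limit for the adult genes.

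Per window, which allows for gene length, the mean normalized level ran from 75115 in Hba-a2 through 54709 in Hba-a1, 38918 in Hbb-bt and 26160 in Hbb-bs to 1026 in Hbb-y, 305.2 in Hba-x and 7.927 in Hbb-bh1. Hba-a2 stood above Hba-a1, and Hbb-bt above Hbb-bs, in 6 of 6 libraries, by 1.341 to 1.435-fold and 1.430 to 1.562-fold. Windows without reads were counted, so these ratios depend on how many windows each gene was given. The median window with reads averaged 86815 in Hba-a2 and 73194 in Hba-a1. It averaged 53295 in Hbb-bt and 33838 in Hbb-bs. Hba-a1 stood above Hbb-bt in 5 of 6 libraries, sham 3 being the exception. Hbb-y stood above Hba-x in 3 of 6, the libraries with high embryonic levels, so with all windows counted their order varied by library. Outside 3 Hba-x windows noticed in the data and described below, Hba-x had 214.4 to 797.1 reads per 1000 Hbb-y reads. There Hbb-y had more reads in every library. By mean gene total, Hba-a2, Hba-a1, Hbb-bt and Hbb-bs ranked 1, 2, 3 and 4 of all genes, Hbb-y 93, Hba-x 255 and Hbb-bh1 10019.

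The spread of Hbb-y over the 6 libraries was among the widest in the table. Its log2 range was 7.30, and 27 of 18566 genes had a wider one. For Hbb-bh1 the range was 5.96, with 81 genes wider, and for Hba-x 3.14, with 421 wider. The adult genes spanned 2.81 to 3.20, and the median gene spanned 1.11. Both classes of globin therefore varied more over these libraries than most genes, and the embryonic beta genes varied most.

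The balance of alpha to beta chains was compared as the share of adult globin reads that fell in Hba-a1 and Hba-a2. It was 67.8%, 72.7% and 54.9% in sham hearts and 59.3%, 76.8% and 65.7% in nano-TiO2 hearts. The groups overlapped, at 65.1% ± 9.2 and 67.3% ± 8.9 (SD, n = 3 libraries each; by an exact permutation test, two-sided p = 0.8 and adjusted p = 0.8). The smallest p that 3 against 3 allows is 0.1, and p-values were adjusted over the 20 shares and window-shape values compared. Alpha reads were 1.22 to 3.31 times beta reads, with sham 3 the lowest and nano-TiO2 2 the highest library. The share was lowest in sham 3 and nano-TiO2 1, which also had low embryonic levels, and highest in sham 2 and nano-TiO2 2, which had high ones.

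Within each adult pair the balance was far tighter. Hba-a2 took 52.5%, 52.1% and 53.5% of adult alpha reads in sham hearts and 53.4%, 53.8% and 53.0% in nano-TiO2 hearts (exact permutation p = 0.3, adjusted p = 0.6). Hbb-bt took 58.7%, 59.3% and 57.2% of adult beta reads in sham hearts and 57.2%, 57.8% and 57.4% in nano-TiO2 hearts (exact permutation p = 0.3, adjusted p = 0.6). Neither share separated the groups, although the levels beneath them ranged 6.99-fold for Hba-a2 and 9.20-fold for Hbb-bt. Hba-a1 and Hba-a2 encode near-identical transcripts, and those of Hbb-bs and Hbb-bt are closely alike. How reads that fit both copies were assigned is not stated in the sources used here, so the split within each pair is uncertain.

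Embryonic reads as a share of all globin reads were 1.66%, 0.435% and 0.0836% in sham hearts and 0.0956%, 3.30% and 0.0926% in nano-TiO2 hearts. Sham 3, nano-TiO2 1 and nano-TiO2 3 lay close together, and sham 1 and nano-TiO2 2 were over 10-fold higher. The exposure groups did not differ beyond this spread (exact permutation p = 0.8, adjusted p = 0.8). The sign of the difference in means turned on 1 library: nano-TiO2 was 0.436 percentage points higher with all libraries and -0.632 points different without nano-TiO2 2. Nano-TiO2 2, the library with the lowest adult levels, had the highest embryonic share.

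**Figure D2:**
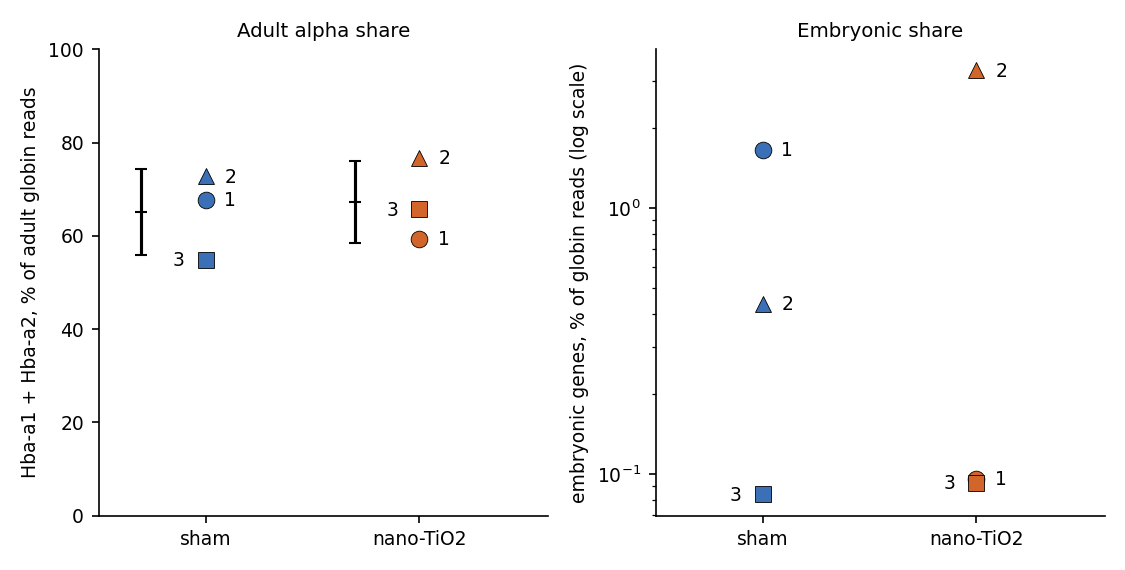
Left, the share of adult globin reads in the alpha genes Hba-a1 and Hba-a2 (percent, axis from 0), with the mean and SD over 3 libraries beside the symbols; right, the share of all globin reads in the 3 embryonic genes (percent, log scale), with no mean drawn. Digits give the replicate number; both panels show the exposure groups overlapping, and at right sham 3, nano-TiO2 1 and nano-TiO2 3 sit near 0.09% while sham 1 and nano-TiO2 2 sit above 1%.

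The embryonic beta genes Hbb-y and Hbb-bh1 kept a steadier balance with each other than Hbb-y kept with the adult beta genes. Hbb-y reads per 1000 adult beta reads were 40.4, 9.07 and 0.682 in sham hearts and 0.578, 110.6 and 0.436 in nano-TiO2 hearts, a 253.8-fold range. Hbb-bh1 reads per 1000 Hbb-y reads were 5.82, 7.28 and 12.1 in sham hearts and 8.19, 10.3 and 12.8 in nano-TiO2 hearts, a 2.197-fold range. As a share of embryonic beta reads, Hbb-bh1 was 0.578%, 0.723% and 1.20% in sham hearts and 0.812%, 1.02% and 1.26% in nano-TiO2 hearts (exact permutation p = 0.4, adjusted p = 0.667). In sham 3, nano-TiO2 1 and nano-TiO2 3 these shares rest on 17, 7 and 8 Hbb-bh1 reads; the 95% Wilson interval for nano-TiO2 3 ran from 0.641% to 2.47%. Such intervals cover counting error and nothing else, and amplified copies of a molecule may have been counted again.

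Hba-x took 22.4%, 43.0% and 62.8% of embryonic reads in sham hearts and 75.2%, 23.9% and 83.7% in nano-TiO2 hearts (exact permutation p = 0.4, adjusted p = 0.667). Its share was highest where embryonic levels were lowest. Those values were shaped by 3 neighbouring windows of Hba-x, starting at 551, 576 and 601, the highest window and its neighbours, which were noticed in the data and held 26.1%, 54.0% and 74.1% of Hba-x reads in sham hearts and 79.9%, 23.1% and 84.6% in nano-TiO2 hearts. The window at 576 had 3498, 9240 and 1925 normalized reads in sham hearts and 1863, 1555 and 1814 in nano-TiO2 hearts. The median of the other Hba-x windows with reads was 750.2, 489.6 and 36.5 in sham hearts and 23.4, 447.7 and 16.9 in nano-TiO2 hearts. The rest of the gene thus varied 44.4-fold over the libraries and the window at 576 varied 5.94-fold.

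Outside the 3 windows Hba-x followed the embryonic beta genes. It had 17039, 10522 and 839.3 normalized reads there in sham hearts and 585.8, 10005 and 401.9 in nano-TiO2 hearts. Set against the adult alpha genes, the 3 windows gave 1.46, 1.40 and 0.709 reads per 1000 adult alpha reads in sham hearts and 0.971, 2.46 and 0.999 in nano-TiO2 hearts, a 3.46-fold range. The remaining windows gave 4.12, 1.19 and 0.248 in sham hearts and 0.244, 8.16 and 0.182 in nano-TiO2 hearts, a 45.0-fold range. Whether adult alpha reads were counted in these 3 windows was not tested. Without the 3 windows, Hba-x took 17.6%, 25.8% and 30.4% of embryonic reads in sham hearts and 37.9%, 19.5% and 44.0% in nano-TiO2 hearts, and the embryonic share of globin reads ran from 0.0271% in nano-TiO2 3 to 3.12% in nano-TiO2 2.

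**Figure D3:**
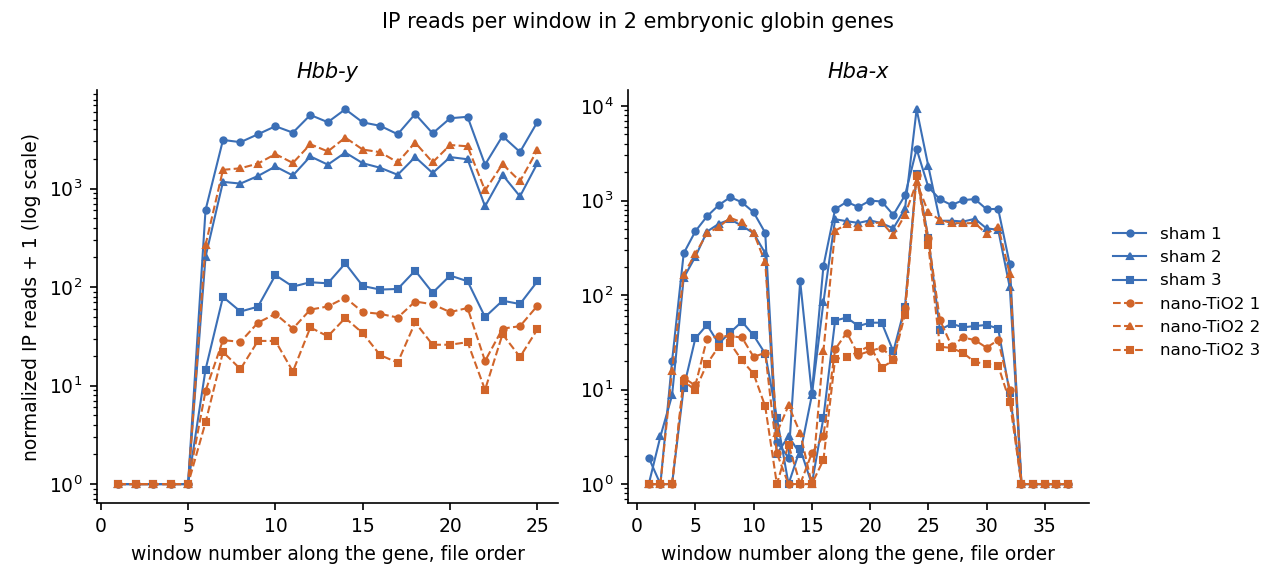
Normalized IP reads plus 1 (log scale) in each window of Hbb-y (left) and Hba-x (right), in the order of the file; each line is 1 library, solid blue for sham and dashed orange for nano-TiO2. The lines form an upper group of sham 1, sham 2 and nano-TiO2 2 and a lower group of the other libraries, and in Hba-x they come together at window 24, the one starting at 576, where all libraries reach 1555 to 9240 normalized reads.

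Along the 4 adult genes and Hba-x, reads fell in blocks divided by inner windows that held under 1% of the gene's median window, while Hbb-y and Hbb-bh1 had 0 such windows. The last 4 windows of Hba-a2, the last 3 of Hba-a1 and the last 5 of Hba-x had no read in any library, as had the first 5 windows of Hbb-bt, Hbb-bs, Hbb-y and Hbb-bh1. RefSeq puts the 3 alpha genes on the plus strand and Hbb-bt, Hbb-bs and Hbb-y on the minus strand, but the sources used here do not say how window order relates to the transcript. The highest window stood 2.36-fold above the gene's median window in Hba-a2 (start 176), 1.70-fold in Hba-a1 (start 101), 1.73-fold in Hbb-bt (start 304), 1.54-fold in Hbb-bs (start 294) and 1.59-fold in Hbb-y (start 334). In Hba-x the window at 576 stood 10.5-fold above the median. Hba-x thus had the highest ratio of top to median window among the 7 genes. The first block of Hbb-bt, before its gap at 279, was low: its windows from 154 to 254 averaged 6467 to 7842 normalized reads, against 91995 in the window just after the gap. In Hbb-bh1 the window at 589 was the highest, with 32, 15 and 2 reads in sham hearts and 0, 176 and 0 in nano-TiO2 hearts, so 1 library set it.

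The shape along each gene differed little between libraries in the adult genes. Between a pair of libraries, the reads of a gene that would have to change window to make the profiles equal had a median of 3.566% in Hba-a2, 2.801% in Hba-a1, 2.524% in Hbb-bt and 3.496% in Hbb-bs. The largest of these distances was 8.46%, for Hbb-bs between sham 2 and nano-TiO2 3. For Hbb-y the median was 6.11%. Hba-x ranged from 5.22% to 64.6%, with the 3 windows above included.

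The centre of a profile is the mean window position weighted by reads, from 0 at the first window to 1 at the last. For Hbb-bt it was 0.664, 0.665 and 0.672 in sham hearts and 0.675, 0.673 and 0.677 in nano-TiO2 hearts. For Hbb-bs it was 0.576, 0.550 and 0.587 in sham hearts and 0.588, 0.594 and 0.593 in nano-TiO2 hearts. In both adult beta genes the nano-TiO2 libraries lay nearer the last window without overlap, by 0.0079 and 0.0207 of the gene (exact permutation p = 0.1 each, the smallest possible; adjusted p = 0.6). These were 2 of 20 values whose groups did not overlap. When groups do not differ, a value separates with a probability of 0.1. With a smallest p of 0.1, no value could have reached an adjusted p of 0.05. For Hbb-bs the shift was 0.0102 without sham 2 and 0.0103 without the first and last 3 windows.

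The windows behind these shifts were picked after the profiles were seen and are given as a description. The last 4 windows of Hbb-bs held 13.2%, 8.47% and 15.3% of its reads in sham hearts and 15.4%, 15.4% and 15.7% in nano-TiO2 hearts, with sham 2 apart from the rest. In Hbb-bt, the windows starting from 129 to 254 held 4.27%, 3.91% and 2.76% in sham hearts and 2.53%, 3.18% and 2.37% in nano-TiO2 hearts, and there the groups overlapped. The centres of the other genes overlapped between the groups, with exact permutation p of 0.5 for Hba-a2, 0.7 for Hba-a1, 0.2 for Hbb-bh1, 0.3 for Hbb-y and 0.6 for Hba-x. In a test of each window against the rest of its gene (limma's diffSplice), 0 of 153 globin windows passed an adjusted p of 0.05 and 1 had an unadjusted p below 0.05. Over all 249423 windows tested, 0.0465% passed. The error of this test includes the swing of the whole gene between libraries of a group. It could therefore miss shifts in single globin windows, most of all in the embryonic genes, and the 0 calls do not show that shapes were equal.

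**Figure D4:**
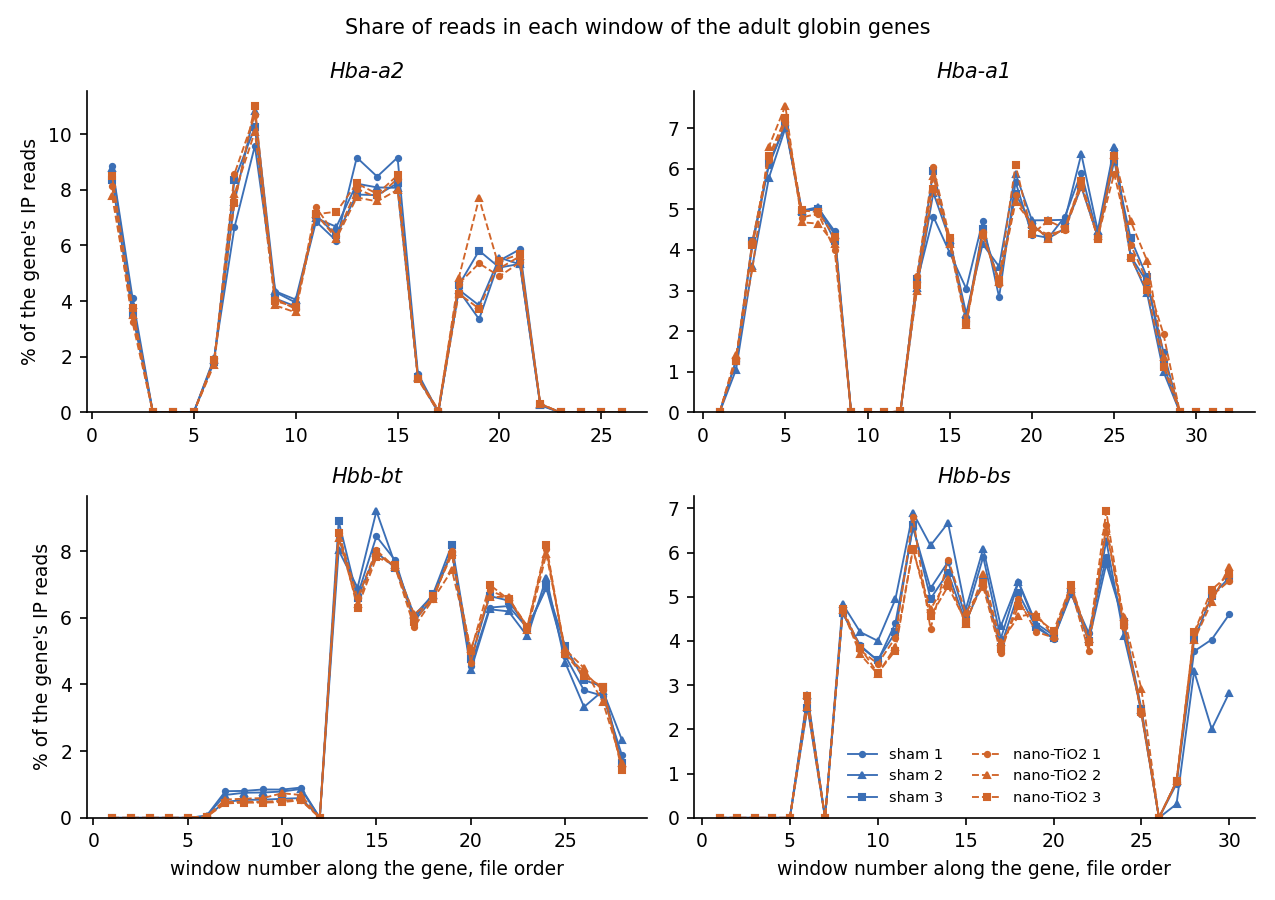
Percent of each adult globin gene's IP reads in each window, in the order of the file; each line is 1 library, solid blue for sham and dashed orange for nano-TiO2. Lines lie close together in most windows; in the last 4 windows of Hbb-bs, sham 2 holds 8.47% and the other libraries hold 13.2% to 15.7%.

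The authors also deposited values they call adjusted, which equal the normalized values of a gene divided by 1 factor per library. The sources used here do not say what the factor was made from. For Hbb-y the factor was 2.585, 1.341 and 0.0651 in sham hearts and 0.0373, 1.95 and 0.0252 in nano-TiO2 hearts, so it ran in the same order as the libraries' embryonic levels. For the adult genes it ran from 0.253 to 2.42. Adjusted Hbb-y was 30749, 22433 and 29149 in sham hearts and 25575, 21056 and 20033 in nano-TiO2 hearts, a 1.54-fold range in place of 158-fold.

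The adult genes narrowed in the same way. Adjusted Hba-a2 was 1989736, 1937577 and 2256354 in sham hearts and 1888449, 1677184 and 1807120 in nano-TiO2 hearts. Adjusted Hbb-bt was 1349531, 1007771 and 1236981 in sham hearts and 1076636, 845078 and 859013 in nano-TiO2 hearts, and the groups overlapped. The log2 changes were -0.20 ± 0.07 (SE) for Hba-a2, -0.22 ± 0.08 for Hba-a1, -0.37 ± 0.12 for Hbb-bt and -0.35 ± 0.13 for Hbb-bs. All nano-TiO2 libraries lay below all sham libraries in Hba-a2 and Hba-a1, 2 of 7 members, against 2.96% of 19361 genes; 0 members, against 19.4% of genes, lay above. By limma 0 members were called lower, as were 0% of all genes, and 5 members had an unadjusted p below 0.05, as had 18.6% of all genes. Without sham 2, 3 members were called lower (Hbb-bt, Hbb-bs and Hbb-y), against 1.38% of all genes called lower and 8.32% called higher.

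Adjusted Hbb-bh1 was 153, 233 and 211 in sham hearts and 84, 231 and 208 in nano-TiO2 hearts, low only in nano-TiO2 1, the library with 7 reads. Adjusted Hba-x was 11581, 12112 and 9664 in sham hearts and 22631, 9289 and 10345 in nano-TiO2 hearts, high only in nano-TiO2 1. The log2 changes were -0.30 ± 0.34 (SE) for Hbb-bh1, -0.30 ± 0.12 for Hbb-y and 0.23 ± 0.26 for Hba-x. Without the 3 windows the change of Hba-x was -0.40, and without nano-TiO2 1 it was -0.18 with all windows. In the 3 windows the adjusted sum was 18088 in nano-TiO2 1 and 2147 to 8757 in the other libraries.

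**Figure D5:**
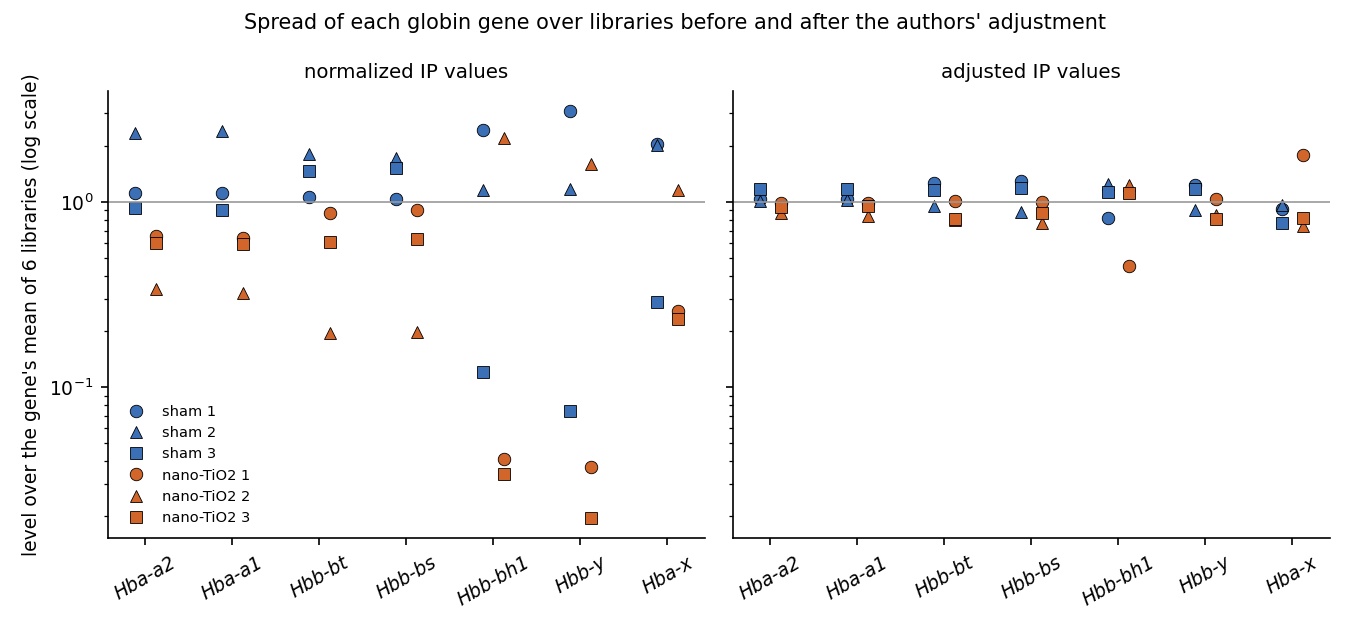
Level of each globin gene divided by that gene's mean over 6 libraries (log scale), for the normalized values (left) and the values the authors call adjusted (right); each symbol is 1 library, blue for sham and orange for nano-TiO2. Hbb-y spans 158-fold at left and 1.54-fold at right, and at right only Hbb-bh1 and Hba-x in nano-TiO2 1 stand clearly away from the line at 1.

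Of the other 18559 genes with a mean of at least 10, those most like the summed adult globins over the 6 libraries were ENSMUSG00000028730 (Pearson's r = 0.998 on log2 values) and ENSMUSG00000097487 (r = 0.991), and 32 genes had r above 0.95. Most like the summed embryonic globins were ENSMUSG00000039130 (r = 0.996) and ENSMUSG00000045007 (r = 0.993), and 129 genes had r above 0.95. ENSMUSG00000045007 had 492.9, 445.8 and 287.9 normalized reads in sham hearts and 253.3, 456.8 and 269.8 in nano-TiO2 hearts, the same 3 libraries high. ENSMUSG00000028730 had 22.49, 31.76 and 21.62 normalized reads in sham hearts and 17.85, 9.93 and 16.11 in nano-TiO2 hearts. These lie near the filter of 10. ENSMUSG00000097487 ran only from 686.8 to 1083 and ENSMUSG00000039130 from 767.5 to 1049, narrower ranges than those of the globins. The correlation compares the pattern over libraries and not the size of the change. The points are 6 libraries that share scaling and depth with the globins, so these values are a description.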

How the data were processed

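The 6 anti-m6A IP libraries were used; the input libraries that the labels describe were not used here. The authors deposited 3 tables with the same windows. The normalized table holds IP signal, per the file headers, and every value was a whole number of reads divided by 1 factor per library (100% of values, tolerance 0.0001), so whole reads were recovered. The filtered table was identical to it. The adjusted table holds scores, deposited as whole numbers. HISAT2 2.2.1, Salmon 1.5.2, DESeq2 1.34.0 and build GRCm39 were used by the authors, per the submitters' processing notes, with no role given; window making, strand setting and treatment of multiply mapping reads are not given in the sources used here.

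Windows were summed per gene. Genes with a mean of at least 10 were fitted with limma 3.58.1 (with trend, in R 4.3.3) on log2(value + 1), adjusted by Benjamini-Hochberg over all genes. A larger added value shrinks the changes of low genes. For Hbb-bh1 the change was -2.20 with 0.5 added and -1.85 with 5 added. The count tests gave smaller changes for this gene, -0.78 in edgeR and -0.94 in DESeq2. diffSplice tested single windows against their gene. Shares and profiles were compared by exact two-sided permutation tests (SciPy 1.17.1). On the recovered counts, edgeR 4.0.16 called 3 members lower, against 14.2% of all genes, and DESeq2 1.42.0 called 4, against 18.8%. Scripts used Python 3.11.15, NumPy 2.4.6, pandas 2.3.3, statsmodels 0.14.6 and matplotlib 3.10.9. Only the limma fit per gene and the diffSplice test of windows were also run on simulated data, with the outcome not given here.

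The 7 members and the lists were chosen with earlier results of these data known. All 7 are named; beyond them the rule names the 2 genes most correlated with each globin class, and the highest and lowest windows. Symbols of the 7 came with the rule that defines them. Lists of other red cell genes and of cell type markers could not be applied, since 0 rows of the RefSeq gene table hold an Ensembl identifier. Alternatives covered pseudocount, filter, scaling, count tests, trimmed windows, a replicate block and leaving out each library. Leaving out 3 windows of Hba-x was added after seeing the data.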

Additional observations from a re-analysis of the deposited data

How the results depend on the processing

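Over 37 results and 416 alternatives, 383 values kept their direction and side of the threshold or stayed within the spread between libraries. Some of these could not have differed, so the count does not measure how stable the results were. The replicate block leaves differences in means unchanged, filters leave a gene's change unchanged, and adjusted values leave a gene's profile almost unchanged. Counts of 3 and 5 members called were also taken as the same as 4. The number of members called in IP level was 4; it was 0 without a filter on low genes, 2 with equal totals outside the adult globins, 0 after quantile normalization and 0 to 4 on leaving out 1 library. With the replicate block it was 5, against 12% of all genes called lower and 22.6% called higher. Globin windows called within genes stayed at 0. A permutation test over 3 pairs cannot go below 0.25, so the block could add no call of a share or profile. Low or negative correlations were the reason not to pair libraries of the same number. Over genes, their deviations from the group means correlated at -0.37, 0.18 and 0.02 for numbers 1, 2 and 3. Sham 1 and sham 3 correlated best with nano-TiO2 2 and nano-TiO2 1 (0.41 and 0.52). The change in the adult share of all reads was -12.34 percentage points, -3.391 with adjusted values, and -15.01 to -7.692 without 1 library. Without 1 library, the difference in alpha share (nano-TiO2 minus sham) ranged from -3.003 to 6.098 points, and that in embryonic share from -0.6316 to 0.97. After quantile normalization, which gives the top ranks the same values in every library, the log2 change of Hba-a1 was 0.2325. Adjusted Hba-x changed by -0.403 without its 3 windows and from -0.175 to 0.4673 without 1 library, and adjusted Hbb-bh1 by -0.5633 to 0.161.

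Without 1 library, the difference in profile centre (nano-TiO2 minus sham) ranged from -0.003109 to 0.000629 in Hba-a1 and from -0.003042 to 0.04633 in Hba-x. This difference was -0.003863 in Hba-x without the 3 windows and -0.000493 in Hbb-y without end windows. The difference in the share of reads in the leading windows (the first of 3 equal parts of the gene) ranged from -0.8366 to 0.2079 points in Hba-a2, -0.1769 to 0.3971 in Hba-a1 and -9.648 to 1.1 in Hba-x; it was 1.717 in Hba-x without the 3 windows and 0.3165 in Hbb-y without end windows. The cause of these turns was not tested. Depth limits Hbb-bh1, with 7 to 17 reads in 3 libraries. With 3 libraries a group, no permutation test could go below 0.1.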
